A study of Homo sapiens with 28 samples.

Results

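PRKDC knockdown was set directly against SUPT16H knockdown in HEK293 cells, an established human embryonic kidney line. The comparison rests on 6 of the study's 28 arrays, chosen by their titles, with 3 arrays for each target. Each array carries a different short hairpin RNA (shRNA) against its target, delivered by a lentivirus that expresses the hairpin from the U6 promoter, and the infected cells were selected with puromycin before RNA was taken. All 6 belong to the second of 2 series of arrays that were normalized apart, and no array with the lacZ control hairpin entered any comparison below. A difference therefore says only that a transcript was higher in the cells that carried hairpins against PRKDC than in those that carried hairpins against SUPT16H, or lower, and not which of them moved away from untreated cells. The study tried about 5 hairpins per gene and kept the 3 most effective, so the arrays are separate infections with different sequences, and the p-values measure the spread between them. The 6 arrays with hairpins against PABPC1 or PARP1 in the same series contributed to the estimate of that spread and serve below as a range to read levels against.

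PRKDC encodes the large catalytic subunit of DNA-PK, a protein kinase that DNA ends switch on. The Ku proteins, encoded by XRCC5 and XRCC6, bind broken DNA ends and bring the kinase there for nonhomologous end joining, and the enzyme belongs to the same family of large kinases as ATM, ATR and mTOR. SUPT16H encodes the larger subunit of FACT, a histone chaperone that it forms with SSRP1. FACT loosens nucleosomes ahead of RNA polymerase II and replication forks and helps to restore them afterwards. The direct comparison asks how far the transcript profiles of cells short of a DNA repair kinase and of cells short of a nucleosome chaperone part from each other.

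Transcript levels were read on Affymetrix Human Gene ST1.0 arrays, whose probes lie along whole transcripts. Levels are log2 intensities of 1 probeset per gene. Probes of different genes differ in affinity, so a level set beside that of another gene is only a rough guide. Differences are log2 values of PRKDC minus SUPT16H knockdown, given with their standard error. The table held 18417 genes. Arrays of the second series, lacZ arrays included, had medians of 54.5 to 58.3 in linear intensity. The number of arrays limits the precision. On that rough scale 8 of 9 markers of epithelium and of this kidney line lay above the median gene, against 1 of 8 neuronal, 1 of 5 blood, 1 of 6 fibroblast and 0 of 4 keratinocyte markers, which describes the arrays and does not test the identity of the cells. In bulk RNA, fewer cells of a kind and less RNA per cell cannot be told apart.

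The knocked-down genes were the largest differences on the arrays. PRKDC read 7.24, 7.37 and 7.08 with its own hairpins 1, 2 and 3 and 9.19, 8.99 and 8.98 with the hairpins against SUPT16H. Every PRKDC hairpin lay below every other array of the series that was used, since the PABPC1 and PARP1 arrays ran from 9.06 to 9.47. The difference of -1.82 ± 0.13, a 3.53-fold lower level, had an adjusted p of 1.07e-05 by limma. SUPT16H mirrored it, with 9.15, 9.32 and 9.32 in the cells with PRKDC hairpins and 7.81, 7.78 and 7.65 with its own hairpins. That difference was 1.52 ± 0.12, or 2.87-fold, with an adjusted p of 2.69e-05. In the PABPC1 and PARP1 arrays SUPT16H read 9.42 to 9.69, so the 3 PRKDC arrays sat slightly under that range while the SUPT16H arrays sat far below it. Both targets passed the threshold in all 17 alternative analyses.

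The partners of the knocked-down proteins did not pass the test. XRCC5 differed by -0.14 ± 0.15 (adjusted p = 0.621) and XRCC6 by -0.05 ± 0.16 (adjusted p = 0.880). SSRP1, the other FACT subunit, differed by -0.02 ± 0.17 (adjusted p = 0.957). Its levels were 9.06, 9.26 and 9.82 with the PRKDC hairpins and 9.55, 9.42 and 9.23 with the SUPT16H hairpins. The groups overlapped for all 3 partners, and PRKDC hairpin 3 gave the highest of the 6 values each time.

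**Figure D1:**
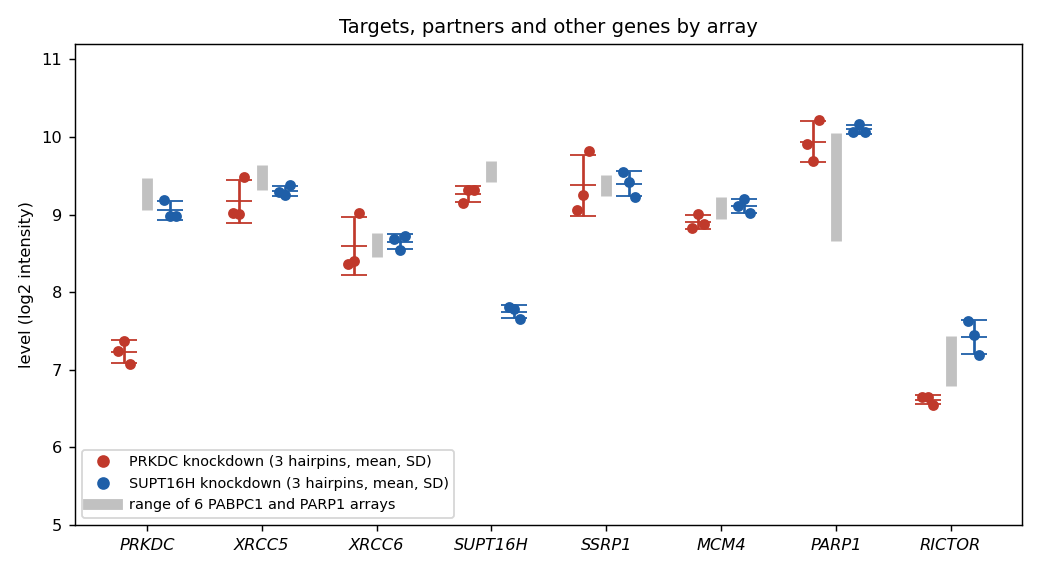
Levels (log2 intensity, vertical axis) of PRKDC, its Ku partners XRCC5 and XRCC6, SUPT16H, its FACT partner SSRP1, the PRKDC neighbour MCM4, PARP1 and RICTOR in each array of PRKDC (red) and SUPT16H (blue) knockdown, with the mean and SD of 3 hairpins and, in grey, the range of the 6 PABPC1 and PARP1 arrays. PRKDC at 7.08 to 7.37 and SUPT16H at 7.65 to 7.81 stand far below the other arrays, while the partners overlap between the knockdowns. The grey range of PARP1 is long because it holds the PARP1 knockdown arrays.

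The genes around each target on its chromosome were read as a check of the loci. Of the 10 nearest measured neighbours of PRKDC on chromosome 8 and the 10 of SUPT16H on chromosome 14, 0 were called, and 3 and 0 of them had an unadjusted limma p under 0.05. Over all genes the shares were 0.869% and 20.6%, so counts over 10 genes say little about the loci. MCM4, a subunit of the replicative helicase that lies head to head with PRKDC, read 8.83, 9.01 and 8.88 against 9.11, 9.20 and 9.02, a difference of -0.21 ± 0.12 (adjusted p = 0.336). UBE2V2, a ubiquitin-conjugating enzyme variant, differed by -0.31 ± 0.12 (adjusted p = 0.152), and CEBPD, a transcription factor of the C/EBP family, by 0.36 ± 0.14 (adjusted p = 0.172). On the other chromosome, CHD8, a chromatin remodeller, differed by -0.27 ± 0.14 (adjusted p = 0.284) and TOX4, a subunit of a nuclear phosphatase complex, by -0.30 ± 0.15 (adjusted p = 0.268). The other genes that the study knocked down were not called either. The largest difference among them was that of PABPC1, the cytoplasmic poly(A)-binding protein, at -0.52 ± 0.18 (adjusted p = 0.130), followed by CPSF6, a cleavage factor subunit, at -0.35 ± 0.12 (adjusted p = 0.137) and the RNA helicase DDX17 at -0.32 ± 0.14 (adjusted p = 0.223). PARP1 differed by -0.16 ± 0.15, HNRNPL by -0.13 ± 0.15, DDX5 by -0.17 ± 0.21 and CLP1 by 0.07 ± 0.15.

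Across all genes, 160 were called at an adjusted p under 0.05, which is 0.869% of those tested. Of these, 45 (0.244%) were higher in PRKDC than in SUPT16H knockdown and 115 (0.624%) were lower. Apart from the targets, the 44 higher genes differed by 0.41 to 1.18, with a median of 0.56, and the 114 lower genes by 0.46 to 1.08 in size, with a median of -0.68. The lower genes were the brighter ones, with a median level of 7.89 against 6.09 for the higher genes and 6.20 for all genes. The adjusted p of these 158 genes lay between 0.0116 and 0.0498, close to the threshold. An unadjusted limma p under 0.05 was found for 3798 genes (20.6%). The 3 PRKDC arrays all lay above the 3 SUPT16H arrays for 2285 genes (12.4%) and all below them for 1874 (10.2%).

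The calls beyond the targets depended on how the spread was estimated and on single arrays. With the 6 arrays alone in the fit, or with the 24 knockdown arrays of both series, only PRKDC and SUPT16H were called. Without PRKDC hairpin 1 the count was 2, without SUPT16H hairpin 1 it was 5 and without SUPT16H hairpin 2 it was 3, whereas it was 313 without PRKDC hairpin 2 and 501 without PRKDC hairpin 3. All 160 genes kept their direction in every alternative in which they were tested, but for many alternatives this was fixed in advance. Changing the other arrays in the fit, the block, the variance model or the filter leaves the difference itself unchanged. Leaving out 1 array cannot reverse a gene whose groups do not overlap. PRKDC hairpin 3 differed from hairpins 1 and 2 with an SD of 0.397 and 0.404 over genes, while those 2 were 0.190 apart. The SUPT16H hairpins were 0.227 to 0.308 apart, and arrays of different targets 0.240 to 0.448.

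The difference between the knockdowns also followed the level of a gene. The median difference was 0.07 for the 4464 genes with a mean level under 5, -0.07 between 7 and 8, -0.17 between 8 and 9, -0.26 for the 457 genes between 9 and 10 and -0.29 for the 196 genes at 10 or over. Measured from the mean of the PABPC1 and PARP1 arrays, the brightest genes had medians of -0.22, -0.11 and -0.03 in the PRKDC arrays and of 0.24, 0.20 and 0.10 in the SUPT16H arrays. Cyclic loess normalization, which levels such trends between arrays and was chosen after seeing the data, left 23 calls, all of them among the 160. The part of this trend in the single differences was otherwise not tested.

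**Figure D2:**
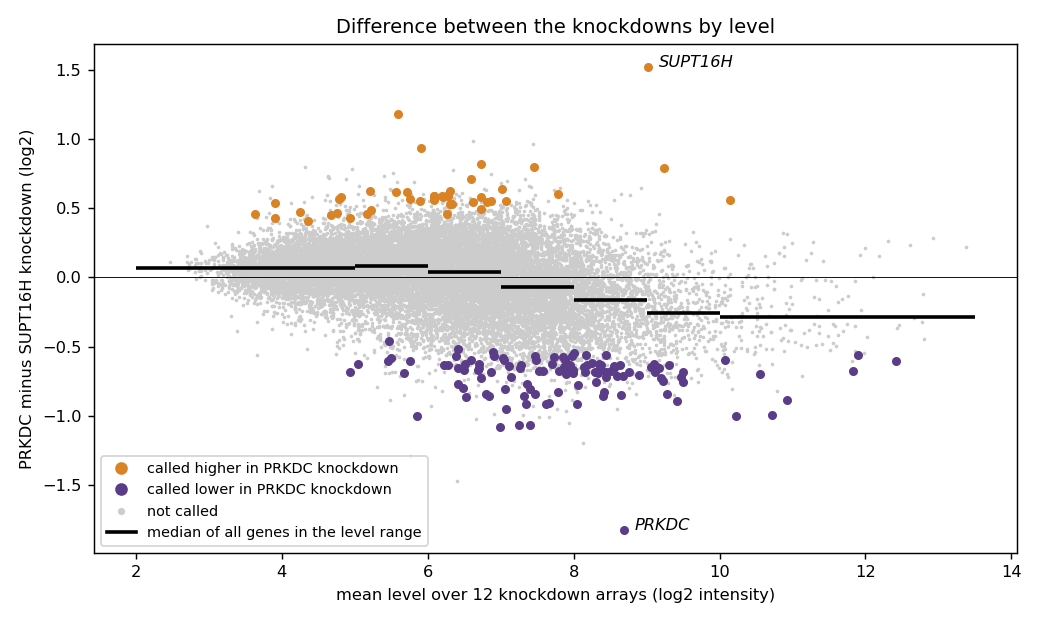
Difference between PRKDC and SUPT16H knockdown (log2, vertical axis) against the mean level over the 12 knockdown arrays of the series (log2 intensity, horizontal axis) for 18417 genes, with called genes in orange (higher) and purple (lower) and the median of each level range as a black bar. The bars lie at 0.07 and 0.08 in the dimmest ranges and step down from there to -0.29 at the bright end, and the purple points reach brighter levels than most orange ones.

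Against the range of the 6 PABPC1 and PARP1 arrays, the called genes parted mainly on the PRKDC side. Of the 114 lower genes, 76 (66.7%) had all 3 PRKDC arrays outside that range and the SUPT16H arrays not, 10 had this for the SUPT16H arrays alone, 5 for both and 23 for neither. Of the 44 higher genes, the corresponding counts were 30 (68.2%), 3, 4 and 7. Among all genes other than the targets, 17.6% had only the PRKDC arrays outside and 4.62% only the SUPT16H arrays. These shares describe the called genes and carry no test, because a gene was called from the same arrays.

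Among the genes called lower with PRKDC hairpins, PRKDC itself left out, RBL2 differed most, by -1.08 ± 0.19 (adjusted p = 0.028). RBL2 encodes p130, a relative of the retinoblastoma protein that holds cell cycle genes silent in resting cells. Its levels were 6.29, 6.28 and 5.86 in PRKDC knockdown and 7.38, 7.20 and 7.09 in SUPT16H knockdown. The PABPC1 and PARP1 arrays ran from 6.58 to 7.72, so the PRKDC arrays lay below them and the SUPT16H arrays inside. MYO6, which encodes the motor myosin VI, showed the same arrangement. It read 6.77, 6.76 and 6.25 against 7.77, 7.77 and 7.45, a difference of -1.07 ± 0.16 (adjusted p = 0.0191), and 7.32 to 8.04 in the PABPC1 and PARP1 arrays. GGH, the lysosomal enzyme gamma-glutamyl hydrolase of folate metabolism, read 5.83, 6.37 and 6.77 against 7.19, 7.36 and 7.62. The spread among the PRKDC hairpins was wide for GGH, yet the groups did not overlap, and the difference was -1.06 ± 0.20 (adjusted p = 0.0364).

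BRWD3, a bromodomain protein that reads histone marks, had the lowest adjusted p after the targets. Its levels of 6.27, 6.59 and 6.36 with PRKDC hairpins compared with 7.51, 7.32 and 7.25 with SUPT16H hairpins and 6.93 to 7.55 in the PABPC1 and PARP1 arrays. The difference was -0.95 ± 0.13 (adjusted p = 0.0116), and BRWD3 was among the genes still called after cyclic loess. AHR, the aryl hydrocarbon receptor that switches on detoxifying enzymes, read 6.89, 6.59 and 6.91 against 7.70, 7.66 and 7.77, a difference of -0.91 ± 0.15 (adjusted p = 0.028). It too had the PRKDC arrays below the 7.19 to 7.74 of the PABPC1 and PARP1 arrays. RICTOR, which defines the mTOR complex that phosphorylates AKT, read 6.65, 6.65 and 6.55 against 7.63, 7.45 and 7.19. RICTOR is not itself a kinase but a partner of one in the family of PRKDC, and its difference was -0.81 ± 0.13 (adjusted p = 0.028).

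EPCAM, the epithelial cell adhesion molecule, read 9.79, 10.49 and 9.84 in PRKDC knockdown and 11.14, 10.93 and 11.04 in SUPT16H knockdown. The difference was -1.0 ± 0.18 (adjusted p = 0.0315) on the brightest probeset, and a dimmer probeset for the same gene gave -0.62. Whether both probesets read the EPCAM locus was not examined. The summed linear intensity of 9 epithelial and kidney line markers was 2859 to 3466 with PRKDC hairpins and 4260 to 4707 with SUPT16H hairpins, and without EPCAM it was 1976 to 2279 against 2315 to 2596. The sum of 8 neuronal markers was also lower, 918.1 to 1175 against 1196 to 1731. NEFL was by far the brightest of them, at 9.43, 9.45 and 9.68 against 10.56, 10.26 and 9.86. The rest differed by 0.27 (SYP), 0.20 (NEFM), 0.16 (SNAP25), 0.08 (ELAVL4), 0.02 (SYT1), -0.04 (ELAVL3) and -0.12 (STMN2). The sum thus followed 1 gene and not the neuronal markers as a group. The part of these sums in other differences was not tested. In a wider list of 16 epithelial and kidney line markers EPCAM was the only call, 8 differences were positive and 8 negative, and the median was 0.02. S100A10, the partner of annexin A2 at the plasma membrane, differed by -1.0 ± 0.17 (adjusted p = 0.028). It read 9.68 to 10.03 in PABPC1 and 10.75 to 10.93 in PARP1 knockdown, so it also varied between those knockdowns. The small GTPases RAB3B, of regulated secretion, and RAB4A, of endosome recycling, differed by -0.91 ± 0.20 each (adjusted p = 0.0452 and 0.046). RAB3B read 6.81 to 8.23 in the PABPC1 and PARP1 arrays, a range that held both knockdowns compared here. The remaining large falls were SLC71A1, a transporter also known as MFSD14A, at -0.92 ± 0.15 (adjusted p = 0.028), the hydroxysteroid dehydrogenase HSD17B11 at -0.87 ± 0.16 (adjusted p = 0.0374), the oligosaccharyltransferase subunit OSTC at -0.86 ± 0.16 (adjusted p = 0.0335) and the enamel matrix gene AMBN at -1.0 ± 0.22 (adjusted p = 0.0454). AMBN varied between 5.23 and 7.04 among the PABPC1 and PARP1 arrays.

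**Figure D3:**
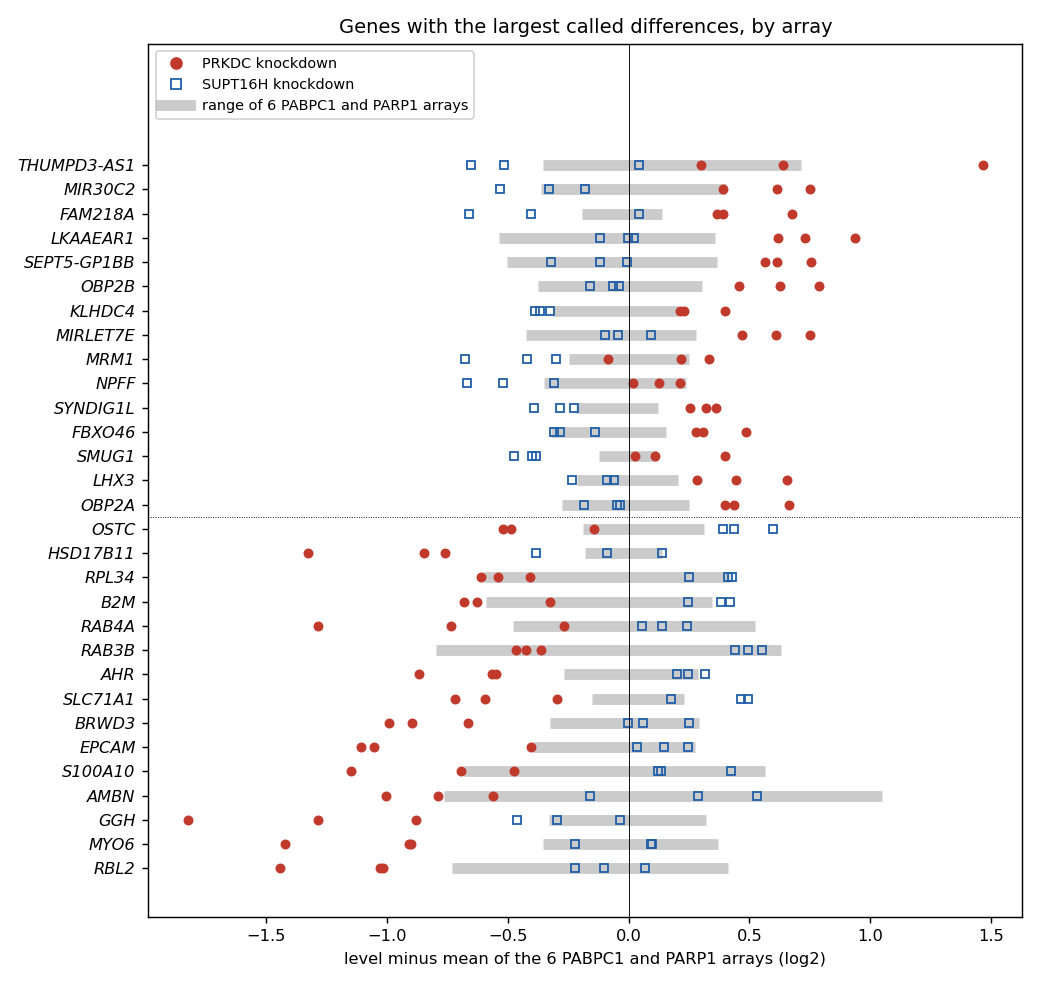
Level of each array minus the mean of the 6 PABPC1 and PARP1 arrays (log2, horizontal axis) for the 15 largest called rises (upper block) and the 15 largest called falls (lower block), with PRKDC knockdown as red points, SUPT16H knockdown as blue squares and the range of the 6 other arrays in grey. For RBL2, MYO6, BRWD3 and AHR the red points fall left of the grey range while the blue squares lie within or near it.

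The genes that were higher with PRKDC hairpins were dimmer and more mixed. THUMPD3-AS1, an RNA antisense to the THUMPD3 locus, had the largest called rise besides SUPT16H but also the widest spread. It read 5.79, 6.13 and 6.96 in PRKDC knockdown and 4.97, 4.84 and 5.54 in SUPT16H knockdown, which gave 1.18 ± 0.25 (adjusted p = 0.0454). FAM218A and LKAAEAR1, whose roles are little known, differed by 0.82 ± 0.16 (adjusted p = 0.0405) and 0.80 ± 0.15 (adjusted p = 0.0374). SEPT5-GP1BB, a readthrough of a septin gene and a platelet glycoprotein gene, read 9.86, 9.72 and 9.67 against 9.10, 8.79 and 8.99. Its difference was 0.79 ± 0.15 (adjusted p = 0.0374), with the PRKDC arrays above the 8.61 to 9.48 of the PABPC1 and PARP1 arrays. OBP2B and OBP2A, a pair of near-identical odorant-binding protein genes whose probes may read each other, differed by 0.71 ± 0.12 (adjusted p = 0.028) and 0.59 ± 0.11 (adjusted p = 0.0374). Their second probesets gave 0.53 and 0.37.

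KLHDC4, a kelch-repeat protein gene, read 7.27, 7.25 and 7.44 against 6.72, 6.65 and 6.68, a difference of 0.64 ± 0.13 (adjusted p = 0.0405). SMUG1, a uracil-DNA glycosylase of base excision repair, read 6.74, 6.45 and 6.37 in PRKDC knockdown and 5.87, 5.96 and 5.94 in SUPT16H knockdown. Here it was the SUPT16H arrays that stood outside the 6.22 to 6.46 of the PABPC1 and PARP1 arrays, on the low side, and the difference was 0.60 ± 0.12 (adjusted p = 0.0411). MRM1, a methyltransferase of mitochondrial ribosomal RNA, differed by 0.62 ± 0.14 (adjusted p = 0.0481), with the SUPT16H arrays low in the same way, and NPFF, the precursor of neuropeptide FF, by 0.62 ± 0.12 (adjusted p = 0.0405). SYNDIG1L, a membrane protein gene, differed by 0.61 ± 0.11 (adjusted p = 0.028), the F-box gene FBXO46 by 0.60 ± 0.13 (adjusted p = 0.046) and LHX3, a LIM homeobox factor of pituitary and motor neuron development, by 0.59 ± 0.13 (adjusted p = 0.044).

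Several microRNA genes were among the calls. MicroRNAs are short RNAs cut from hairpin precursors that pair with messenger RNAs through the seed, bases 2 to 8 of the mature strand. The array probes read the transcript of the locus rather than the mature RNA. Of 173 microRNA genes measured, 4 (2.31%) were called higher and 1 lower, against 0.244% and 0.624% of all genes. For 32 (18.5%) all PRKDC arrays lay above all SUPT16H arrays, against 12.4% of all genes. The median difference over the group was 0.06, against 0.02 for all genes, and -0.003 after cyclic loess. The average of the all-gene medians at their levels was also 0.06, so the group median does not stand out from genes of like level. The shares above were not matched for level. The mature sequences of the 5 called loci are shown so that seeds can be compared, with the seed in capitals, as given by RefSeq for GRCh38.p14, where 164 of the 173 had an entry.
hsa-miR-30c-5p (MIR30C2, chr6:71377003-71377025, minus strand): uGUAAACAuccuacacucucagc
hsa-let-7e-5p (MIRLET7E, chr19:51692793-51692814, plus strand): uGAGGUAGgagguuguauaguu
hsa-let-7a-5p (MIRLET7A2, chr11:122146568-122146589, minus strand): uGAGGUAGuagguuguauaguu
hsa-miR-494-3p (MIR494, chr14:101029681-101029702, plus strand): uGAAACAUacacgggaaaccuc
hsa-miR-218-5p (MIR218-1, chr4:20528299-20528319, plus strand): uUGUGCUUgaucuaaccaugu
The let-7e and let-7a strands share the seed GAGGUAG, while the seeds of the other 3 differ from it and from each other.

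MIR30C2 had the largest difference of the microRNA genes. It read 6.60, 6.47 and 6.24 with PRKDC hairpins and 5.67, 5.52 and 5.32 with SUPT16H hairpins, a difference of 0.93 ± 0.13 (adjusted p = 0.0116). The PABPC1 and PARP1 arrays ran from 5.49 to 6.25, with 6.02 to 6.25 in PABPC1 and 5.49 to 5.67 in PARP1 knockdown, so this locus also varied between those knockdowns. The other loci of the miR-30 family lay between -0.02 for MIR30A, MIR30C2's neighbour, and 0.09 for MIR30C1 and MIR30E, and none of them was called. MIRLET7E read 5.81, 5.67 and 5.53 against 5.01, 5.15 and 4.96, which gave 0.63 ± 0.13 (adjusted p = 0.0445). MIRLET7A2, added here after its value was seen, read 4.29, 4.18 and 4.13 against 3.89, 3.51 and 3.59, or 0.54 ± 0.10 (adjusted p = 0.0374). Other let-7 loci were not called, with differences of 0.33 for MIRLET7C and MIRLET7F2, 0.26 for MIRLET7G and 0.23 for MIRLET7A1, 0.06 for MIRLET7D and MIRLET7I and -0.19 for MIRLET7F1. MIR494 read 5.34, 5.07 and 5.01 against 4.53, 4.51 and 4.64, which gave 0.58 ± 0.11 (adjusted p = 0.0357). MIR218-1 was the gene that went the other way, with 4.74, 4.72 and 4.56 against 5.38, 5.29 and 5.22, or -0.62 ± 0.12 (adjusted p = 0.0405). Its sister locus MIR218-2 differed by 0.19 and was not called.

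Genes of the pathways that the targets belong to were counted next. Members were taken from lists, and uncalled genes named from here on are examples picked after their values were seen. Among 22 measured genes of DNA-PK and end joining, PRKDC was the only call and the median difference was -0.09. NHEJ1, the ligation factor XLF, differed by -0.42 ± 0.20 (adjusted p = 0.262) and CYREN, an inhibitor of end joining, by 0.35 ± 0.15 (adjusted p = 0.213). Of 27 genes of double-strand break signalling and recombination, 0 were called by limma, with 5 (18.5%) at an unadjusted p under 0.05, against 20.6% of all genes. Of 15 genes for kinases of the PRKDC family and their assembly factors, RICTOR was the only call. The chaperone HSP90AB1 differed by -0.49 ± 0.13 (adjusted p = 0.0689), ATM, the kinase that signals broken DNA, by -0.39 ± 0.13 (adjusted p = 0.125), SMG1, the kinase of nonsense-mediated decay, by -0.43 ± 0.18 (adjusted p = 0.193) and MTOR by 0.02 ± 0.17. The median over these 15 was -0.15, and it was 0.01 after cyclic loess. Among 27 p53 targets the only call was ZMAT3, an RNA-binding zinc finger gene, which read 6.77, 6.68 and 6.60 against 7.41, 7.24 and 7.19 (-0.60 ± 0.12, adjusted p = 0.0405). Other p53 targets went both ways, with CDKN1A, the cell cycle inhibitor p21, at -0.50 ± 0.18 (adjusted p = 0.138) and the death gene BAX at 0.49 ± 0.16 (adjusted p = 0.112).

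On the FACT side, SUPT16H was the only call among 34 genes of FACT and transcription elongation, whose median difference was -0.04. CCNT2 and CCNT1, cyclins of the elongation kinase P-TEFb, differed by -0.57 ± 0.18 (adjusted p = 0.103) and -0.45 ± 0.15 (adjusted p = 0.113), and NELFB, of the pausing factor NELF, by 0.36 ± 0.11 (adjusted p = 0.109). Of 33 histone chaperone genes 0 were called by limma, with a median of -0.01 and 10 (30.3%) at an unadjusted p under 0.05, against 20.6% of all genes. The 57 replication-dependent histone genes, whose products fill the nucleosomes that FACT handles, had 0 calls by limma and 7 (12.3%) at an unadjusted p under 0.05. Of the 57, 46 had a positive difference and 11 a negative one, with a median of 0.14, and the median was 0.05 to 0.17 over the alternatives. By array, measured from the PABPC1 and PARP1 arrays, the histone medians were -0.04, -0.15 and 0.16 with PRKDC hairpins and -0.16, -0.15 and -0.18 with SUPT16H hairpins. PRKDC hairpin 2 was thus level with the SUPT16H arrays, and the lowest median, 0.05, came from leaving out PRKDC hairpin 3. H2BC21 and H2BC12, histone genes that also give polyadenylated transcripts, were the most negative at -0.85 ± 0.40 (adjusted p = 0.239) and -0.65 ± 0.32 (adjusted p = 0.263).

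Cytosolic ribosomal protein genes were the list with the most calls in the lower direction. Of 58 measured, 6 (10.3%) were called lower and 0 higher, against 0.624% and 0.244% of all genes. The median difference was -0.42, with 56 genes negative, and for 39 (67.2%) all PRKDC arrays lay below all SUPT16H arrays, against 10.2% of all genes. RPL34, of the large subunit, read 10.36, 10.56 and 10.43 in PRKDC knockdown and 11.38, 11.22 and 11.40 in SUPT16H knockdown, a difference of -0.88 ± 0.13 (adjusted p = 0.0208). It read 10.37 to 10.71 in PABPC1 and 11.31 to 11.39 in PARP1 knockdown, so RPL34 also varied between those knockdowns. A second RPL34 probeset gave -0.38, and ribosomal protein genes have many processed copies in the genome whose signal the arrays cannot keep apart. RPL29, RPL18 and RPL23 differed by -0.70 ± 0.15, -0.68 ± 0.14 and -0.64 ± 0.13. A second RPL29 probeset gave -0.40. For the called genes of the list not named here, dimmer probesets gave -0.55 to -0.27 and 0.18. By array, the medians from the PABPC1 and PARP1 arrays were -0.27, -0.15 and 0.04 with PRKDC hairpins and 0.30, 0.20 and 0.22 with SUPT16H hairpins. These genes are among the brightest on the array, with a median level of 10.66, and the median difference of all genes at their levels averaged -0.26. After cyclic loess the group median was -0.11.

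The G2 and M phase genes had mostly negative differences and not a single call. Of 35 measured, 33 had a negative difference, and the median was -0.37, with -0.52 to -0.25 over the alternatives and -0.25 after cyclic loess. An unadjusted limma p under 0.05 was found for 21 (60%), against 20.6% of all genes, and no overlap in the lower direction for 12 (34.3%), against 10.2%. TTK, a kinase of the spindle checkpoint, differed by -0.70 ± 0.21 (adjusted p = 0.0926), ECT2, which drives the cleavage furrow, by -0.63 ± 0.16 (adjusted p = 0.0633) and BUB1, a checkpoint kinase, by -0.58 ± 0.16 (adjusted p = 0.0759). The genes PLK1, CDC20 and CDC25B, which act in the same phase, stood at 0.12, -0.01 and 0.03. By array the medians were -0.37, -0.11 and -0.26 with PRKDC hairpins and 0.27, 0.28 and -0.09 with SUPT16H hairpins, so SUPT16H hairpin 3 lay with the PRKDC arrays. The average of the all-gene medians at their levels was -0.14. The 42 genes of DNA replication and S phase had 0 calls by limma, 11 (26.2%) at an unadjusted p under 0.05 and a median of -0.04.

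**Figure D4:**
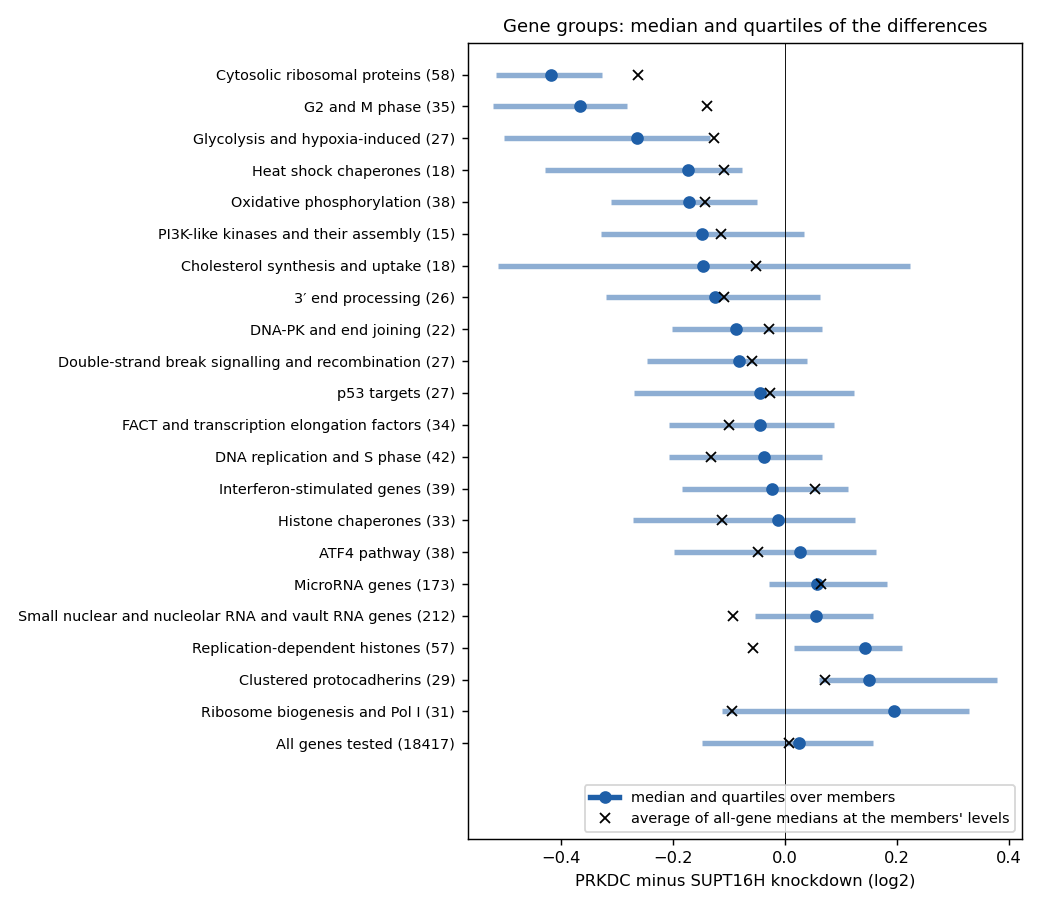
Difference between PRKDC and SUPT16H knockdown (log2, horizontal axis) for 21 gene groups and all genes, with the median as a point, the quartiles as a bar, the number of measured genes in brackets and, as a cross, the average of the all-gene medians at the members' levels. Ribosomal proteins (-0.42) and G2 and M genes (-0.37) lie furthest to the left and ribosome biogenesis genes (0.19) furthest to the right.

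Genes for building ribosomes had a positive median, which rested on 1 array. Of 31 genes of ribosome biogenesis and RNA polymerase I, 0 were called by limma, 9 (29.0%, against 20.6% of all genes) had an unadjusted p under 0.05 and the median difference was 0.19. By array the medians were -0.24, -0.30 and 0.30 with PRKDC hairpins and -0.17, -0.42 and -0.27 with SUPT16H hairpins. PRKDC hairpin 3 alone stood high, and without it the median was -0.10. The genes of the ATF4 stress pathway differed more between the arrays of a target than between targets. Of 38 such genes, 0 were called by limma and 3 (7.90%) had an unadjusted p under 0.05. Their medians were 0.48, 0.22 and -0.05 with PRKDC hairpins 1 to 3 and 0.47, 0.21 and -0.01 with the SUPT16H hairpins. The medians thus fell with the number in both targets, although hairpins of the same number are different sequences. The source of this was not tested.

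**Figure D5:**
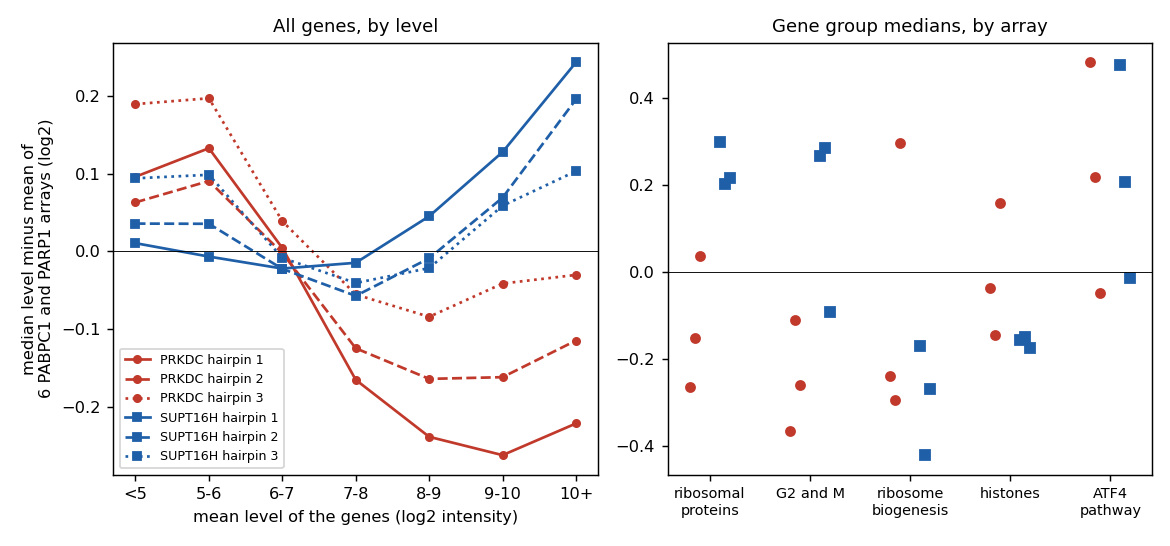
Left, median over genes of each array's level minus the mean of the 6 PABPC1 and PARP1 arrays (log2, vertical axis) by the mean level of the genes (log2 intensity), for the 3 PRKDC arrays in red and the 3 SUPT16H arrays in blue. Right, the same quantity as the median over 5 gene groups in each array. Bright genes part the targets (-0.22 to -0.03 against 0.10 to 0.24 at levels of 10 or over), ribosomal proteins do so too, and ribosome biogenesis genes are high in PRKDC hairpin 3 alone.

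Metabolic genes added a few calls. Of 18 genes of cholesterol synthesis and uptake, SC5D and SQLE, enzymes of sterol synthesis, were called lower (11.1%, against 0.624% of all genes) and 0 higher. SC5D read 6.44, 6.35 and 6.15 against 7.14, 7.20 and 7.16, a difference of -0.85 ± 0.14 (adjusted p = 0.028), and SQLE differed by -0.85 ± 0.18 (adjusted p = 0.0439). Of all 18, 11 had a negative and 7 a positive difference, with a median of -0.15. The uncalled members with the largest negative differences were HMGCS1 at -0.59 ± 0.25 (adjusted p = 0.197), CYP51A1 at -0.52 ± 0.13 (adjusted p = 0.0604), INSIG1 at -0.52 ± 0.23 (adjusted p = 0.210) and MSMO1 at -0.50 ± 0.22 (adjusted p = 0.208), and the largest positive one was PMVK at 0.34 ± 0.17 (adjusted p = 0.270). Of 27 glycolysis and hypoxia-induced genes GAPDH was the only call, at 12.06, 12.24 and 12.10 against 12.77, 12.76 and 12.69 (-0.61 ± 0.13, adjusted p = 0.0439). The PABPC1 and PARP1 arrays read 12.13 to 12.72 for GAPDH and so reached into both groups. The list had 22 negative differences and a median of -0.26, with -0.368 to -0.145 over the alternatives. The average of the all-gene medians at its levels was -0.13. P4HA1, a collagen hydroxylase, differed by -0.95 ± 0.41 (adjusted p = 0.209) and HK2, the hexokinase that opens glycolysis, by 0.63 ± 0.17 (adjusted p = 0.0678). The 38 oxidative phosphorylation genes had 0 calls by limma, 9 (23.7%, against 20.6% of all genes) at an unadjusted p under 0.05 and a median of -0.17, which was 0.01 after cyclic loess.

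Of 39 interferon-stimulated genes, B2M was the only call. B2M encodes the light chain of class I histocompatibility molecules, and read 8.84, 9.15 and 8.79 with PRKDC hairpins and 9.85, 9.71 and 9.89 with SUPT16H hairpins. The difference was -0.89 ± 0.15 (adjusted p = 0.028), while the PABPC1 and PARP1 arrays ran from 8.88 to 9.82 and so reached into both groups. For 9 genes of the list (23.1%) all PRKDC arrays were below all SUPT16H arrays, against 10.2% of all genes. For 0 genes of the list they were above, against 12.4% of all genes. IFIT1, an antiviral RNA-binding protein, differed by -0.55 ± 0.14 (adjusted p = 0.0629) and IFI44L by -0.41 ± 0.10 (adjusted p = 0.0557), whereas OAS1, a sensor of double-stranded RNA, differed by 0.31 ± 0.13 (adjusted p = 0.190). The median over the list was -0.02.

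The study centred on Aire-sensitive genes, those that the AIRE regulator raises in the mouse thymus. Its lists give those with an extra, earlier poly(A) site, and the mouse genes were matched here to human symbols. For its own knockdown arrays the study used another set, taken from HEK293 cells transfected with Aire, so the counts below do not repeat its comparison. Of 543 such genes matched by symbol, AHR, HEG1 and RAB3B were called lower and LHX3 higher, 0.552% and 0.184% of the list, near the shares of all genes. HEG1, a receptor of blood vessel development, read 6.00, 6.28 and 5.66 against 6.75, 6.88 and 6.70, a difference of -0.80 ± 0.15 (adjusted p = 0.0374). The median over the list was 0.06.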

How the data were processed

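The deposited values are probeset intensities on the linear scale, which the authors made from Human Gene ST1.0 scans with the aroma.affymetrix package by robust multi-array averaging (RMA): background correction, quantile normalization and summary over probes, with each series normalized apart. RMA forces like distributions on the arrays of a series. The package version is not given in the sources used here. Scans, single probes and lacZ arrays were not used here. Groups and hairpin numbers came from the sample titles.

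The table holds 33252 probesets, of which 1754 name several genes and 12038 none. The other 19460 gave 18417 genes, with the brightest probeset standing for each of 769 genes that have more than 1, and 18389 genes matched the RefSeq gene table by Entrez ID. The log2 of each intensity was used as it stands, without a floor or pseudocount. The PRKDC minus SUPT16H difference was estimated with limma 3.58.1 in R 4.3.3 over the 12 knockdown arrays of the second series, with 1 mean per target, an intensity trend in the variance and 8 residual and 7.2 prior degrees of freedom. p-values, two-sided, were adjusted by Benjamini and Hochberg over all genes and called under 0.05. In simulated data with 100 genes each shifted by 1 and by 2 log2 units, 89% and 100% were recovered, with 10 false among 199 calls. The simulated noise was independent between genes and arrays and held no trend with level. Most real calls were also smaller than 1 log2 unit, so these rates do not describe them.

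Named genes are the targets and their partners, their 5 neighbours on each side, the other knockdown targets, the 15 largest rises and 15 largest falls besides the targets among called genes whose arrays do not overlap, and up to 4 called members per list. Gene lists were written from general knowledge, except the Aire-sensitive genes, which the study lists. The members and lists were chosen with earlier results of these data known. Alternatives changed the arrays in the fit, the normalization, the pseudocount, the filter on dim genes (mean level under 6), the choice of probeset and the variance model, or left out 1 array. Python 3.11.15 with numpy 2.4.6, pandas 2.3.3 and matplotlib 3.10.9 served for tables and figures.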

Additional observations from a re-analysis of the deposited data

How the results depend on the processing

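The differences of PRKDC and SUPT16H kept their direction and passed the threshold in all 17 alternatives. The count of called genes, 160 as reported, was 2 with the 6 arrays alone, 2 with 24 knockdown arrays of both series, 52 after quantile normalization of the 12 arrays, 23 after cyclic loess (an alternative chosen after seeing the data), 425 of 10046 genes without dim genes and 431 without an intensity trend in the variance. Leaving out 1 array at a time gave 2 to 501. It was 221 with arrays centred on their medians, 155 with a pseudocount of 16, 139 with the mean of a gene's probesets and 158 with robust variances. The share of higher calls, 28.1%, was 21.3% after centring and 34.6% after quantile normalization. With the hairpin number as a replicate block the count was 127, of which 104 were among the 160. Same-numbered arrays of the targets correlated in their deviations by -0.10, 0.26 and 0.25, and not every array correlated best with its own number, so the numbers were not taken to pair the samples. Of the 47 other called genes named by the rules above, 12 were called after cyclic loess, 22 after quantile normalization, 40 with the block and 0 with the 6 arrays alone. MIRLET7A2, added after its value was seen, is not in these counts. No direction reversed, which the fits that leave the difference unchanged could not show. The cause of the changes in the number of calls was not tested. With 3 hairpins per target, the number of arrays limits the precision, and the called microRNA and olfactory receptor genes lie at dim levels.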

Other observations

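Of 494 zinc finger genes named ZNF, 3 (0.607%) were called lower in PRKDC than in SUPT16H knockdown and 1 (0.202%) higher, near the 0.624% and 0.244% of all genes. ZNF484 differed by -0.69 ± 0.12 (adjusted p = 0.028 by limma), ZNF207, which also binds the spindle checkpoint protein BUB3, by -0.69 ± 0.14 (adjusted p = 0.0423), ZNF292 by -0.68 ± 0.14 (adjusted p = 0.0439) and ZNF414 by 0.55 ± 0.12 (adjusted p = 0.0452). Of 361 olfactory receptor genes, 2 (0.554%) were called higher, against 0.244% of all genes, and 0 lower. OR2L3 was higher by 0.43 ± 0.08 (adjusted p = 0.0357) and OR7E13P, a pseudogene, by 0.41 ± 0.09 (adjusted p = 0.044), both at levels under 5. The 29 clustered protocadherin genes, cell-surface labels of neurons, had 0 calls by limma, 10 (34.5%, against 20.6% of all genes) at an unadjusted p under 0.05, 25 positive differences and a median of 0.15, and their median was highest in PRKDC hairpin 3. The 212 small nuclear, nucleolar and vault RNA genes had 0 calls by limma, 18 (8.49%) at an unadjusted p under 0.05 and a median of 0.06.

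Over all genes 0.869% were called, so a short list with 0 calls says little about its genes. In all, 28 of 42 gene groups had 0 calls by limma, with medians between -0.37 and 0.19. Among them were the lists of 10 replication-independent histone genes (median -0.02), 24 nucleic acid sensor and NF-kB genes (-0.05), 23 XBP1 and ER chaperone genes (-0.12), 13 fatty acid synthesis genes (-0.12), 18 heat shock chaperones (-0.17), 26 genes of 3′ end processing (-0.13) and 28 apoptosis regulators (-0.04). They also held 33 growth factor feedback genes (-0.02), 38 TGF-beta, YAP and matrix genes (-0.04), 31 Wnt and Notch genes (0.00), 27 HOX genes (-0.01), 68 keratin-associated protein genes (0.01) and the neuronal, blood, fibroblast and keratinocyte marker lists (0.08, 0.08, 0.00 and 0.01).

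Some differences of 1 log2 unit or more were not called. Of 13 genes that reached this size besides the targets, 5 were called. ANXA1, a phospholipid-binding protein, differed by -1.29 (adjusted p = 0.0537), and IFITM1, an interferon-induced antiviral membrane protein, by -1.02 ± 0.37 (adjusted p = 0.147). These genes were picked after their values were seen.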
